A study of Mus musculus with 12 samples.

Results

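Oxidative phosphorylation subunits are the nuclear-encoded proteins of the 5 complexes in the inner mitochondrial membrane that turn the energy of NADH and succinate into ATP. They were taken here as every gene in the table whose symbol begins with Nduf and a letter of the A, B, C, S or V series and a digit, is Sdha, Sdhb, Sdhc, Sdhd or Cyc1, begins with Uqcr or Atp5, or begins with Cox and a digit from 4 to 8. The rule found 77 of the 10073 genes listed. Of these, 35 belong to complex I, 4 to complex II, 9 to complex III, 11 to complex IV, counting Ndufa4, and 15 to complex V. The other 3 are found by their symbols only: Cox7a2l is a supercomplex assembly factor, and Atp5s and Atp5sl are older names of proteins tied to assembly or coupling. The 77 genes were listed above 0 in every library, and the mean of each reached 0.5 RPKM (reads per kilobase of a gene and per M, or mega, reads of the library), so none was lost to the filter on low values.

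Electrons from NADH enter at complex I and those from succinate at complex II, are carried by ubiquinone to complex III and by cytochrome c to complex IV, which reduces oxygen. Complexes I, III and IV pump protons, and complex V, the ATP synthase, lets them flow back to make ATP. Naive T cells rest on this pathway for most of their ATP, and strong T cell receptor stimulation is known to raise both glycolysis and mitochondrial mass. The question put to the data was whether transcripts of the machinery differ between naive CD4 T cells with weaker and stronger basal receptor signalling.

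RNA of 12 libraries was measured, 4 sorted populations from each of 3 untreated mice. All mice carried the transgene Tg(Nr4a1-EGFP)GY139Gsat, in which regulatory sequence of the receptor-induced gene Nr4a1 (Nur77) drives GFP, and the targeted allele Foxp3tm1Flv, which reports the regulatory T cell factor Foxp3 in red, both on a C57/BL6 background. Ages were not given in the labels. Sorted cells came from spleen and lymph nodes and were CD4+, without signal of the Foxp3 reporter, and CD44lo. By label, population A was GFPlo Ly6C+, B was GFPint Ly6C+, C was GFPint Ly6C- and D was GFPhi Ly6C-. GFP therefore rises from A to D while the Ly6C gate changes between B and C. Libraries carry the population and the mouse number of their labels: A1 is mouse 1, population A.

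Many promoters of this gene group are known to bind the factors NRF-1, GABP of the ETS family, YY1 and ERR, so their sequences were searched for the short words those factors read. Windows from 250 bases before to 50 bases after the start of transcription, from RefSeq on build GRCm38.p6, matched 65 of the 77 genes with 71 windows. The other members, among them the abundant Atp5a1 and Cox4i1, were not searched. Both strands were searched, and no member window held overlapping matches of different words. The NRF-1 word, GCGCA and GCGC with any base between them, was found in 25.4% of member windows, against 11.2% of windows of all genes tested. The YY1 word AAGATGGCG was in 12.7%, against 3.54%. The ERR word TCAAGGTCA was in 2.82%, only 2 of the 71 windows, against 0.262%. The ETS word CCGGAAG was in 22.5%, against 20.03%, and TATAAA in 8.45%, against 6.52%. At least 1 of the NRF-1, ETS and YY1 words was in a window of 35 of the 65 genes searched. That share was not counted over all genes tested. The ETS word alone was in 24.6% of the member genes searched, against 23.3% of the genes tested. Median GC content was 58.3% in member windows and higher, at 61%, in those of the genes tested. The stretches below come from the 3 most abundant of the members searched whose window held the NRF-1 word. They are written 5′ to 3′ on the minus strand, where each gene lies, with the match in capitals.
Atp5h, chr11:115420035-115420076: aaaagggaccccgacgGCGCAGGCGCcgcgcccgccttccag
Atp5g2, chr15:102671064-102671105: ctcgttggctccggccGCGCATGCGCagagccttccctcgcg
Cox6a1, chr5:115349050-115349136: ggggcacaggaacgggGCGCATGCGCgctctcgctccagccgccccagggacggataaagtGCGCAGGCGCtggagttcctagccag
The Cox6a1 stretch held the word in 2 places. NRF-1 matches fell in 7 genes of complex I, 2 of complex II, 1 of complex III, 1 of complex IV and 6 of complex V. A match is a description of letters and was not tied here to binding of a factor.

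Depth recovered from the values was 6.31 (A3) to 9.07 (C1) M reads. The 7 markers of naive CD4 T cells, among them Cd3e and Cd4, were present in every library, with a summed level of 1518 to 1721 RPKM. Some libraries stood apart or went against their labels. Nr4a1 did not follow the GFP labels in every library. It stood at 57.7 RPKM in A1 against 26.1 and 22.9 RPKM in A2 and A3, at 36.0 RPKM in B1 against 73.3 and 64.6 RPKM in B2 and B3, at 23.4 to 28.3 RPKM in C, and at 58.7 to 67.8 RPKM in D. Ly6c1, which encodes one form of Ly6C, ranged from 59.3 to 67.0 RPKM in the libraries labelled Ly6C- of population C, above the 37.1 to 50.2 RPKM in the libraries labelled Ly6C+ of population B. Directions below are therefore those of the labels. In C3 the antibody gene Jchain reached 709 RPKM, where no other library exceeded 6.33 RPKM. C3 also had 209 RPKM of the antigen presentation gene Cd74 and a summed level of 837 RPKM over 3 plasma cell markers, against 18.3 to 24.4 RPKM elsewhere. Haemoglobin Hbb-bs was 4.78 to 14.0 RPKM in A1, B1, C2 and D2 and 79.1 to 111 RPKM in the other 8 libraries. A bulk library cannot tell fewer cells of a type from less RNA per cell.

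The subunits were abundant per length of gene. Together they held 0.455% (A3) to 0.496% (D2) of all reads, 28599 to 43131 reads a library. Their median level was 45.9 RPKM, against 12.8 RPKM over the genes tested. On a per-length scale the median member level was 34.7 RPKM in complex I, 46.4 in complex II, 53.0 in complex III, 89.4 in complex IV and 81.7 in complex V. Subunits of one complex did not share a level: the highest and lowest members stood 26.6-fold apart in complex I, 2.6-fold in complex II, 9.71-fold in complex III, 3.99-fold in complex IV and 9.06-fold in complex V.

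**Figure D1:**
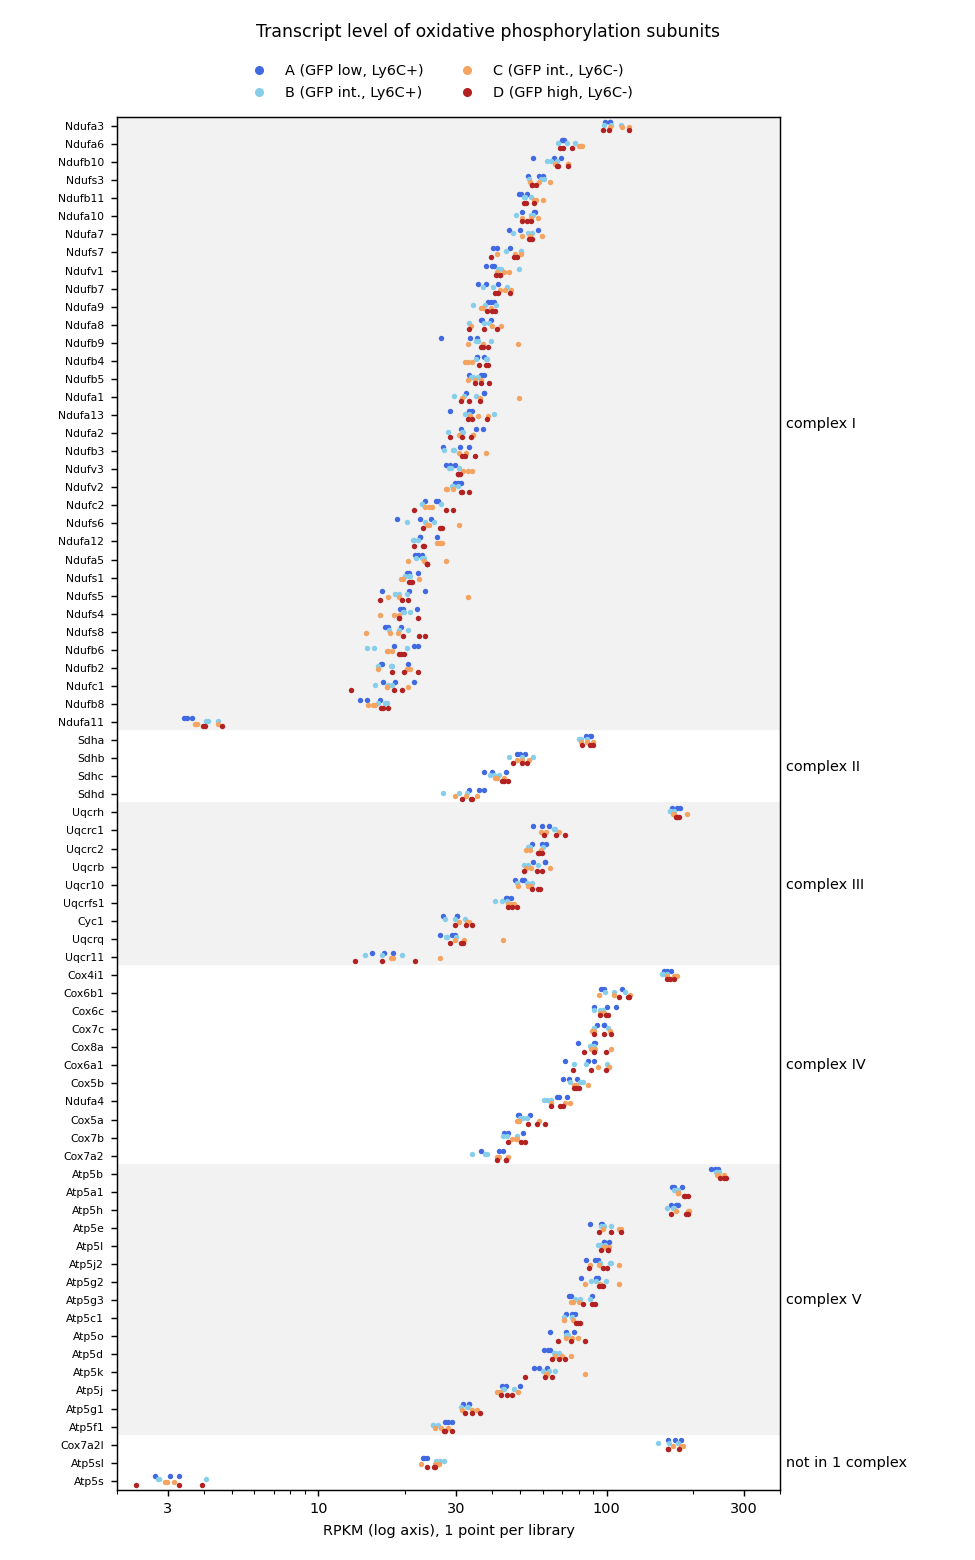
Level of all but 1 of the 77 members in RPKM on a log axis, 1 point per library, coloured by population and grouped by complex. Members of 1 complex spread over a wide range, from 3.99 RPKM (Ndufa11) to 106 RPKM (Ndufa3) in complex I, while the 12 points of a gene lie close together.

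Complex I, the NADH dehydrogenase, ran from Ndufa11 at 3.99 RPKM to Ndufa3 at 106 RPKM, both accessory subunits (means over 12 libraries). The low value of Ndufa11 rests on a listed gene length of 4537 bases, where its longest GENCODE transcript has 918, so its 100 to 175 reads a library are divided by a length that may not fit the transcript. Ndufv1, which holds the flavin and the NADH site, averaged 39.7 ± 1.35 RPKM in A, 44.9 ± 4.05 in B, 43.8 ± 2.09 in population C and 42.2 ± 0.751 in D (SD, n = 3 each). Ndufs1, the largest iron-sulphur subunit, averaged 21.0 ± 0.924 RPKM in A, 20.5 ± 0.409 in B, 20.4 ± 1.60 in population C and 20.9 ± 0.236 in D. For Ndufv1 every B library lay above every A library, and the log2 difference, 0.17 ± 0.06, missed the threshold of the test described below (limma adjusted p = 0.124). For Ndufs1 the libraries of the populations overlapped.

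Complex II, succinate dehydrogenase, feeds electrons from the tricarboxylic acid cycle. Its flavoprotein Sdha averaged 85.4 RPKM and its iron-sulphur protein Sdhb 50.7 RPKM over the 12 libraries. The membrane anchors were lower, with Sdhc at 42.0 RPKM and Sdhd at 32.9 RPKM. Complex III was led by Uqcrh, the hinge protein that touches cytochrome c1, at 174 RPKM, and ended with the small subunit Uqcr11 at 17.9 RPKM. Its electron carriers lay between them: Uqcrfs1, the Rieske iron-sulphur protein, averaged 45.6 RPKM and Cyc1, cytochrome c1, 30.9 RPKM.

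In complex IV, cytochrome c oxidase, only nuclear subunits were measured, since the catalytic core is encoded in mitochondrial DNA and was not analysed here. Cox4i1, which surrounds that core and takes part in its control by ATP, was highest at 164 RPKM, and Cox7a2 lowest at 41.2 RPKM. The isoform families were represented by their broadly expressed members. Cox5a averaged 53.0 RPKM, Cox5b 78.4, Cox6a1 89.4, Cox6b1 108, Cox8a 90.5 and Ndufa4 67.5 RPKM, while the tissue isoforms Cox4i2, Cox6a2, Cox6b2, Cox7a1, Cox8b, Cox8c and Ndufa4l2 were not analysed here. Cox7a2l, the gene of the supercomplex assembly factor, averaged 171 RPKM, above the mean of every nuclear subunit of complex IV found here. Protein was not measured, so this level does not show whether supercomplexes form in these cells.

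Complex V had the most abundant member, Atp5b, the catalytic beta subunit, at 245 RPKM, followed by the alpha subunit Atp5a1 at 178 RPKM and the stalk subunit Atp5h at 177 RPKM. The gamma subunit Atp5c1, the turning shaft, stood at 75.6 RPKM, and Atp5f1, subunit b of the stalk, was lowest at 27.1 RPKM. The c subunits, which form the proton-driven ring, come from 3 genes with the same mature protein: Atp5g2 averaged 93.7 RPKM, Atp5g3 81.7 RPKM and Atp5g1 33.3 RPKM. Many of these genes have processed copies elsewhere in the genome, and no source used here says how reads shared between copies were counted, so levels across genes carry that uncertainty.

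The level of a member varied little from library to library. The median SD of log2 RPKM over all 12 libraries was 0.102 for the members. It was 0.114 for other genes with a like number of reads and 0.120 for all genes tested. At matched RPKM the medians were alike: members of at least 10 RPKM had a median SD of 0.0992, and other genes between 10 RPKM and the level of the highest member 0.0993. Reads were not matched there, with a median of 360.5 for these members and 656.5 for these other genes. Within populations, the members' SD was a median of 1.15 times the SD that counting alone gives. That ratio was 1.23 for other genes with a like number of reads and 1.28 for all genes tested. At matched RPKM it was 1.18 for members and 1.45 for other genes. Among members of at least 10 RPKM the steadiest was Atp5l, subunit g of the ATP synthase (SD 0.04), then Atp5b and Cox4i1 (0.05 each). Atp5b read 244, 237 and 231 RPKM in A, 243, 245 and 240 in B, 242, 243 and 256 in C, and 247, 256 and 259 in D. The highest of the 12 values was 1.120 times the lowest.

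Small accessory subunits were among the members that varied most. Ndufs5 read 23.4, 16.6 and 20.6 RPKM in A, 20.3, 19.0 and 18.5 in B, 19.1, 17.5 and 33.1 in C, and 16.3, 19.5 and 20.4 in D (SD of log2 0.27). Uqcr11 read 15.3, 18.1 and 16.9 RPKM in A, 16.6, 14.6 and 19.5 in B, 18.2, 17.8 and 26.5 in C, and 13.3, 16.6 and 21.7 in D (0.25). Ndufb9 read 35.4, 33.7 and 26.5 RPKM in A, 35.2, 35.9 and 39.7 in B, 33.0, 37.2 and 49.1 in C, and 37.3, 36.7 and 38.8 in D (0.20). In all 3 the highest library was C3, and for Ndufb9 the value of A3 was as far below the others. Across the group, C3 was the highest library for 20 of 77 members (26.0%), against 13.4% of all genes tested. Of the 47 members with a gene length under 1000 bases, 18 were highest in C3, and of the 30 longer ones 2 were. Among all genes under 1000 bases the share highest in C3 was 25.7%. C3 is also the library with high Jchain and Cd74, whose part in these values was not tested. A3, the shallowest library, was the lowest for 21 members (27.3%), against 13.9% of all genes.

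**Figure D2:**
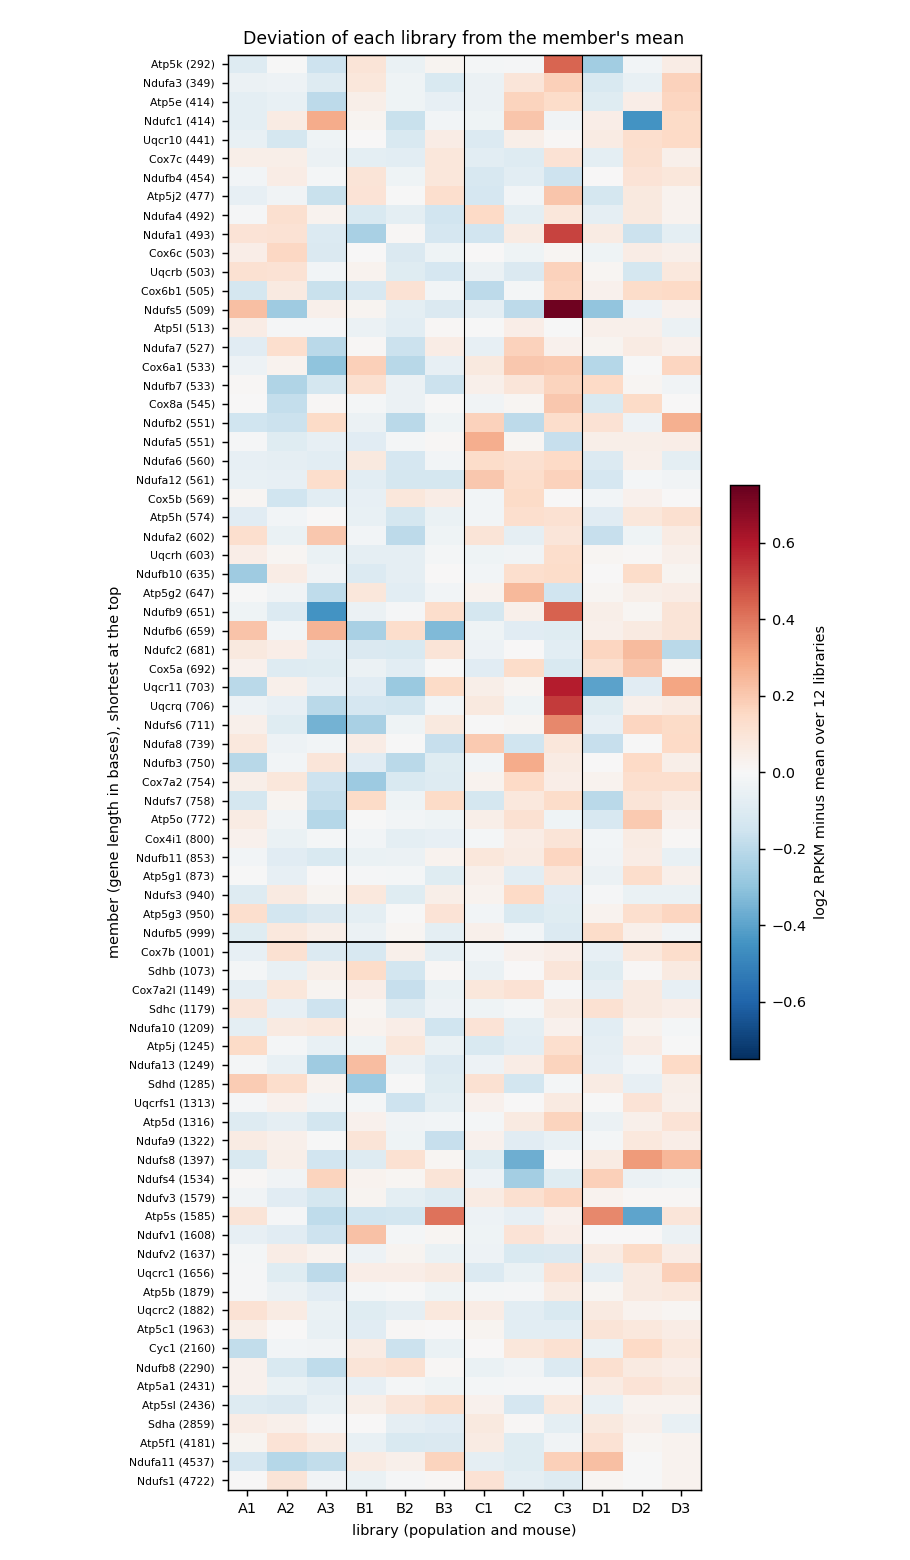
Deviation of each library from a member's mean over 12 libraries, in log2 RPKM, with all but 1 of the 77 members ordered by gene length from the shortest at the top and a line at 1000 bases. C3 is the highest library for 18 of the 47 members above the line and for 2 of those below it.

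Summed over the 77 members, the level was 4506 ± 109 RPKM in A, 4514 ± 70.8 in B, 4717 ± 145 in population C and 4698 ± 146 in D (SD, n = 3 each). Libraries of D ranged from 4529 to 4788 RPKM and those of A from 4380 to 4574 RPKM, so these groups overlapped, and C and B did not overlap, with 4586 to 4873 RPKM in C and 4436 to 4575 RPKM in B. Without C3 the remaining C libraries stood at 4586 and 4692 RPKM. The sums of the single complexes also lay close together. In complex IV every C library (917 to 994 RPKM) lay above every B library (902 to 913 RPKM), and in the other complexes C and B overlapped. Complex V summed to 1497 ± 58.1 RPKM in D and 1410 ± 44.2 in A, and complex I to 1321 ± 44.1 RPKM in C and 1259 ± 28.6 in B.

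**Figure D3:**
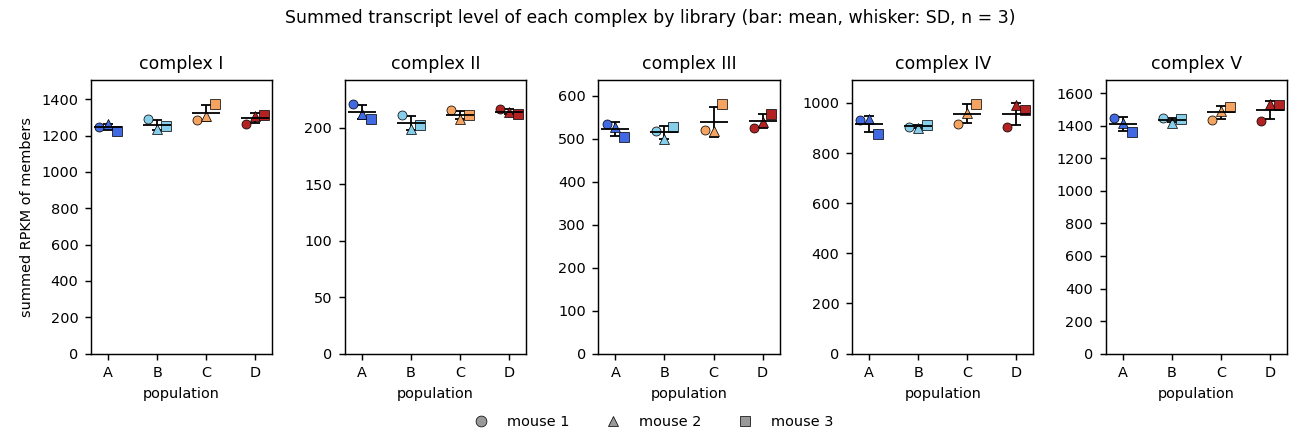
Summed RPKM of the members of each complex in every library, by population, with the mouse as the symbol, a bar at the mean and a whisker of 1 SD (n = 3). The sums of a complex lay close together over A to D: over all 12 libraries complex II lay between 199 and 221 RPKM and complex III between 499 and 580 RPKM.

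Differences between populations were tested with limma on log2(RPKM + 0.5) over the 10021 genes whose mean reached 0.5 RPKM, with p adjusted over all of them by the Benjamini-Hochberg method and 0.05 as the threshold. No member passed in D against C, B against A, C against B, D against A, in the F test over the 4 populations or in the test of the D minus C step against the B minus A step. Few genes of any kind passed: 0.00998% in D against C, C against B, D against A and the F test, 2.23% in B against A and 0.0% in the difference of steps. With the mouse as a block, the count of all genes in B against A was 2, against 223 without it. At an unadjusted p under 0.05 there were 11 members in D against C (18.1% of all genes tested), 9 in B against A (23.1%), 12 in C against B (13.4%), 10 in D against A (19.0%), 13 in the F test (21.7%) and 7 in the difference of steps (15.0%). As shares of the 77 members these are 14.3%, 11.7%, 15.6%, 13.0%, 16.9% and 9.09%. Among these 6 tests the member share was above that of all genes in C against B only. Fitted on the 6 libraries compared alone, 0 members passed in each of the 4 comparisons, while 4.8% of all genes did in D against C, 3.79% in B against A, 0.0% in C against B and 0.0299% in D against A.

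The intervals below are those of single genes in this fit, not adjusted for the number of genes. They do not cover a change of processing. Atp5f1 in B against A, for example, moved from -0.15 to 0.14 when a trend in GC content and length was removed. In D against C the 95% interval of the log2 difference lay within 1.25-fold either way for 63 of 77 members and within 1.5-fold for 75. Within 1.25-fold there were 62 in B against A, 61 in C against B and 62 in D against A, and within 1.5-fold 77, 75 and 77. The exceptions at 1.5-fold had intervals reaching a log2 difference of -0.67 (Ndufs5) in D against C and 0.67 (Uqcr11) in C against B.

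**Figure D4:**
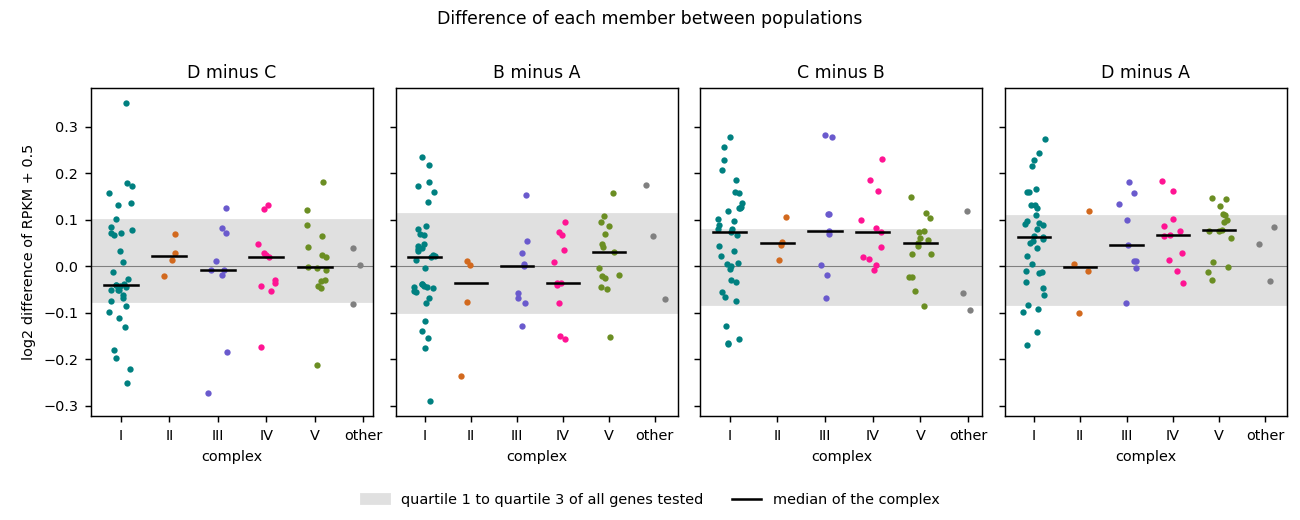
Log2 difference of RPKM + 0.5 for each member in the 4 comparisons, by complex, with the median of each complex as a black line and a grey band from quartile 1 to quartile 3 of all genes tested. Points scatter about 0 in D minus C and B minus A and mostly above 0 in C minus B (58 of 77) and D minus A (56 of 77), and no point passed the test.

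In D against C, GFP high against intermediate within the Ly6C- gate, members moved to both sides. The median log2 difference of the 77 members was -0.01, against 0.01 over all genes tested, with 36 above 0 and 41 below. At an unadjusted p under 0.05, 8 members were higher, against 11.1% of all genes, and 3 lower, against 7.02%. The libraries of D and C did not overlap for 13 members, against 24.0% of all genes tested: D lay above C for 9 (14.1%) and below it for 4 (9.89%). Ndufv2, an iron-sulphur subunit of complex I beside the flavin, read 31.5, 33.2 and 31.3 RPKM in D and 29.3, 27.8 and 27.9 RPKM in C. Every D library lay above every C library, and the log2 difference of 0.17 ± 0.05 (SE) did not pass (limma adjusted p = 0.106). Ndufa12, an accessory subunit of the matrix arm, read 21.4, 23.2 and 23.0 RPKM in D and 26.9, 25.7 and 26.4 RPKM in C. Its groups were apart in the other direction, with a log2 difference of -0.22 ± 0.06 (limma adjusted p = 0.106). Ndufb4, an accessory subunit of the membrane arm, read 36.0, 38.6 and 38.1 RPKM in D against 33.0, 34.0 and 32.3 RPKM in C, with no overlap and a log2 difference of 0.18 ± 0.05 (limma adjusted p = 0.110). Ndufs8, which carries iron-sulphur clusters near the ubiquinone site, had the largest difference of any member, 0.35 ± 0.10 (limma adjusted p = 0.111), with 19.6, 23.5 and 22.4 RPKM in D and 17.7, 14.6 and 18.9 RPKM in C; it is named here for its size, seen in the values. The 4 regulatory T cell markers also stood apart here, summing to 34.1 to 43.6 RPKM in D and 8.2 to 13.4 RPKM in C, and the 3 cycling markers to 38.3 to 42.6 RPKM in D and 21.2 to 49.3 RPKM in C. Their part in these differences was not tested.

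Without A1 and B1, libraries that do not enter this comparison but feed the shared spread, 7.63% of all genes passed in D against C. Of the members, Ndufa12 (log2 difference -0.22, limma adjusted p = 0.0469) and Ndufa6, an accessory subunit that binds the acyl carrier protein (-0.18, 0.0412), then fell in D. That is 2 of 77 members, where 2.58% of all genes fell. Leaving out C3 as well gave 1 member, Ndufs8, higher in D (0.43, limma adjusted p = 0.0195), where 8.39% of all genes passed and 5.62% were higher.

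In B against A, GFP intermediate against low within the Ly6C+ gate, the median of the members was 0.01, as it was over all genes (0.01), with 41 of 77 above 0. At an unadjusted p under 0.05, 5 members were higher, against 10.8% of all genes, and 4 lower, against 12.3%. Libraries of B and A were apart for 10 members, against 29.2% of all genes tested, with B above A for 6 (13.4%) and below it for 4 (15.8%). The smallest p belonged to Atp5sl, an older symbol of Dmac2, tied to complex I assembly, with 25.6, 26.5 and 27.3 RPKM in B and 23.2, 23.1 and 23.9 RPKM in A. Every B library lay above every A library, with a log2 difference of 0.18 ± 0.06 (limma adjusted p = 0.107), or 0.09 once a trend in GC content and length was removed from each library. Sdhd, a membrane anchor of complex II, read 27.2, 32.8 and 30.8 RPKM in B and 37.5, 36.0 and 33.4 RPKM in A, all lower in B, with a difference of -0.23 ± 0.08 (limma adjusted p = 0.111), and -0.12 without A1 and B1. Atp5f1 read 26.0, 24.99 and 25.04 RPKM in B and 27.4, 29.0 and 28.2 RPKM in A, also without overlap. Its difference was -0.15 ± 0.05 (limma adjusted p = 0.114), and 0.14 with that trend removed. A1 and B1 are the libraries whose Nr4a1 stood apart, and without them no member passed, while 10.9% of all genes did. Without A1, B1 and C3, 1 member passed, Ndufb9, an accessory subunit of complex I, which was higher in B (0.33, limma adjusted p = 0.0438), where 16.3% of all genes passed and 9.22% were higher.

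In C against B, Ly6C- against Ly6C+ at GFP intermediate, members leaned to one side. The median log2 difference was 0.06, against -0.00 over all genes tested, and 58 of 77 were above 0 (75.3%, against 48.2% of all genes). By mouse number the median over members was 0.01, 0.06 and 0.10. The 4 members of complex II, 10 of 11 of complex IV, 7 of 9 of complex III, 11 of 15 of complex V and 25 of 35 of complex I were above 0. At an unadjusted p under 0.05, 11 were higher, against 5.49% of all genes, and 1 was lower, against 7.9%. Libraries were apart for 13 members, against 15.1% of all genes, 10 of them with C above B, against 6.31%, and 3 with C below B, against 8.83%. The regulatory T cell markers summed to 8.2 to 13.4 RPKM in C and to 10.2, 41.8 and 32.8 RPKM in B, and their part was not tested.

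Ndufa12 had the smallest p here too, with 26.9, 25.7 and 26.4 RPKM in C and 22.2, 21.4 and 21.4 RPKM in B. The log2 difference was 0.28 ± 0.06 (limma adjusted p = 0.271). Cox7a2, the broadly expressed isoform of a small complex IV subunit, read 41.8, 45.4 and 42.4 RPKM in C against 34.0, 37.96 and 38.4 RPKM in B, all higher in C (0.23 ± 0.07, limma adjusted p = 0.285). Ndufb4 was the one lower, with 33.0, 34.0 and 32.3 RPKM in C and 38.4, 35.1 and 38.1 RPKM in B (-0.16 ± 0.05, limma adjusted p = 0.285, and -0.27 with the GC and length trend removed). Without B1, Ndufa12 (limma adjusted p = 0.0396) and Ndufa6 (0.0487) passed and were higher in C. In that fit 386 of the 10021 genes tested passed, 138 of them higher in C. Without A1 and B1 there were 3 members higher in C (3.9%), Ndufa12, Ndufa6 and the accessory subunit Ndufv3, where 7.74% of all genes passed and 2.76% were higher. Without C3 too, 1 member passed, Ndufa12 (0.29, limma adjusted p = 0.0297), with 8.71% of all genes past the threshold and 3.23% higher.

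The lean in C against B was larger among short members than among longer ones. Members are short, with a median length of 754 bases against 3601 bases for all genes tested. The 47 members under 1000 bases, a split chosen after the values were seen, had a median of 0.08, and the 30 longer ones 0.01. All 536 genes tested under 1000 bases had a median of 0.07, and the 9485 longer ones -0.01. By mouse number the median was 0.04, 0.10 and 0.15 for the short members and -0.01, 0.11 and 0.11 for all short genes. In D against C the short members had a median of -0.03 and the longer ones 0.04, beside -0.04 for all short genes and 0.02 for all longer ones. Without C3 the members' median in C against B was 0.04. With all libraries and a trend in GC content and length removed from each, it was -0.00. GC content and length were removed together, and the part of each was not tested.

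In D against A, the ends of the sort, the median member difference was 0.07, against 0.01 over all genes tested, with 56 of 77 above 0 (72.7%, against 53.6% of all genes). By mouse number it was -0.00, 0.08 and 0.10. With the GC and length trend removed it was 0.02, against -0.02 over all genes. Short members had a median of 0.06 and longer ones 0.07, beside 0.02 and 0.01 for all short and longer genes. The 10 members at an unadjusted p under 0.05 were all higher in D, beside 10.8% of all genes higher and 8.18% lower. Libraries were apart for 14 members, all with D above A, against 25.8% of all genes in either direction and 14.1% with D above A. The share of members apart in that direction was 18.2%, and 11.7% of all genes had D below A, as 0 members did. The 3 cycling markers in the table summed to 38.3 to 42.6 RPKM in D and 22.2 to 37.5 RPKM in A. The 4 regulatory T cell markers summed to 34.1 to 43.6 RPKM in D and 9.17 to 45.7 RPKM in A, where A1 held the high value. Their part in these differences was not tested.

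Uqcr10, a small subunit that helps hold the Rieske protein and cytochrome c1 in complex III, read 55.1, 57.6 and 58.6 RPKM in D and 50.9, 48.2 and 51.8 RPKM in A. Each D library lay above each A library, with a log2 difference of 0.18 ± 0.06 (limma adjusted p = 0.160). Atp5a1 read 186, 191 and 188 RPKM in D and 183, 172 and 169 RPKM in A, apart by a small step (0.11 ± 0.04, limma adjusted p = 0.190), and the difference was 0.02 with the GC and length trend removed. Ndufs8 read 19.6, 23.5 and 22.4 RPKM in D and 17.4, 19.4 and 17.0 RPKM in A, apart by little between its closest libraries (0.27 ± 0.10, limma adjusted p = 0.191, and 0.18 with that trend removed). Without A1 and B1, Atp5a1 (0.14, limma adjusted p = 0.0376), the c subunit Atp5g3 (0.23, 0.0298) and the membrane arm subunit Ndufb8 (0.23, 0.0457) passed and were higher in D, 3.9% of the members, where 8.84% of all genes passed and 6.08% were higher. Without A1, B1 and C3, 8 members (10.4%) were higher in D, among them these 3, Ndufb7, Ndufb9, Ndufs6 and Sdhc, and none lower, where 13.5% of all genes passed and 8.7% were higher. In the F test over the populations, leaving out A1 and B1 gave Ndufa12, Ndufa6 and Ndufv3 (9.63% of all genes), and leaving out C3 too gave Atp5g3 (13.1%). The difference of steps gave 0 members and 0.0% of all genes in both.

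**Figure D5:**
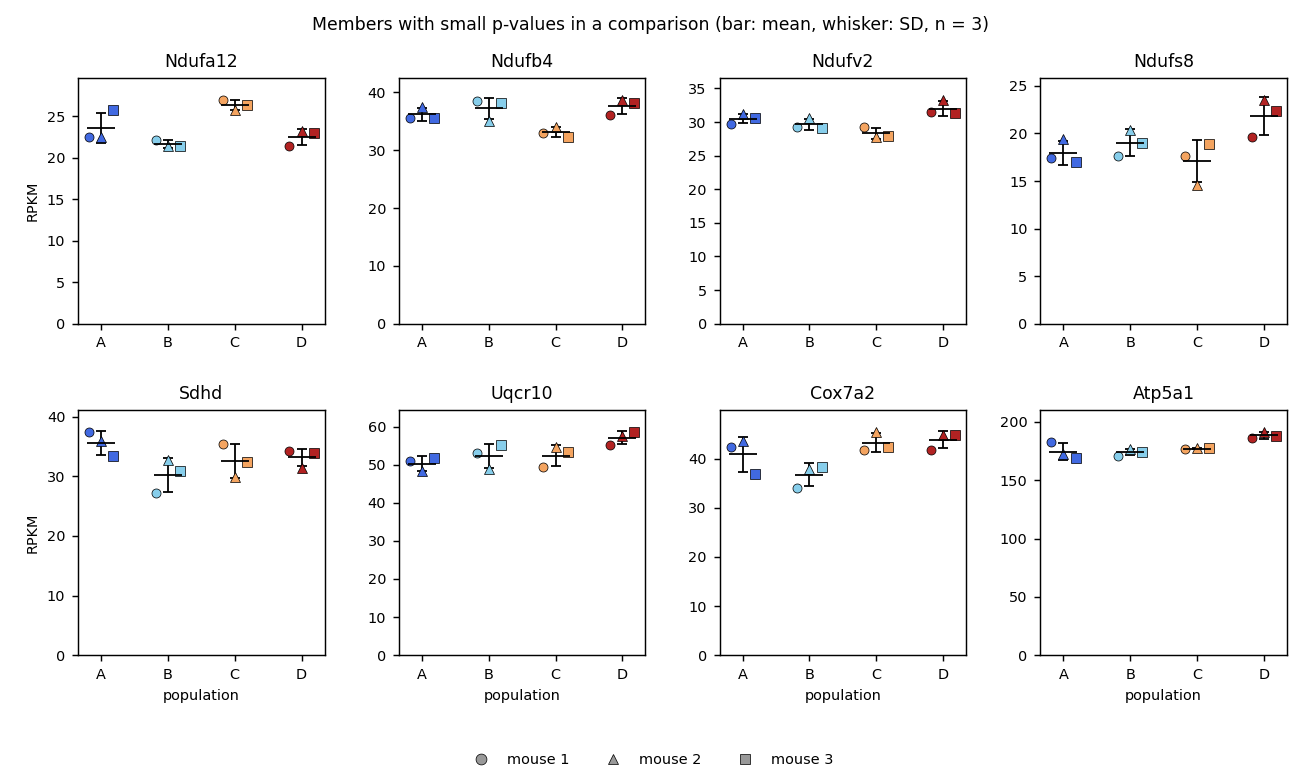
RPKM of 8 members with small p-values in at least 1 comparison, by population and mouse (symbols), with the mean as a bar and 1 SD as a whisker (n = 3). Ndufa12 is higher in C than in B or D and Ndufb4 lower, Atp5a1 sits highest in D, and the axes start at 0 to show how small each step is.

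Of the 3 genes of the c ring, only Atp5g3 had libraries apart in D against C. Atp5g3 read 83.1, 89.0 and 91.3 RPKM in D and 80.3, 75.4 and 76.4 RPKM in C, apart with a log2 difference of 0.18 ± 0.07 (limma adjusted p = 0.203). Atp5g2 read 94.3, 96.4 and 97.2 RPKM in D and 95.1, 111 and 84.1 RPKM in C, and Atp5g1 32.2, 36.5 and 34.2 RPKM in D and 34.2, 31.6 and 35.5 RPKM in C, both with overlap.

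Other genes of energy supply were listed beside the subunits, and 2 of them passed. In the 4 pairwise comparisons, 0 genes passed among 15 of complex I assembly, 3 of complex II assembly, 7 of complex III assembly, 5 of complex V assembly, 12 of coenzyme Q synthesis, 18 of glycolysis, 19 nuclear regulators of respiratory genes, and 4 carriers and uncouplers. The same held for 6 genes outside the symbol rule: the subunits Ndufab1, Usmg5 and 2010107E04Rik, and Nnt, Cycs and Atpif1, which are not subunits. Of 23 genes of complex IV assembly, 1 passed, Pet100, a chaperone of the oxidase, with 8.14, 9.07 and 8.66 RPKM in B and 6.24, 5.75 and 5.85 RPKM in A. It was higher in B (log2 difference 0.50 ± 0.09, limma adjusted p = 0.0367), where 2.23% of all genes passed. It no longer passed with the mouse as a block (adjusted p = 0.0575), with the GC and length trend removed (0.47, adjusted p = 0.112), without limma's trend (0.0657) or with limma-voom on recovered reads (0.0509). Of 18 genes of the tricarboxylic acid cycle, 1 passed, Dld, the shared dihydrolipoamide dehydrogenase, with 23.1, 27.1 and 23.2 RPKM in B and 30.9, 31.0 and 29.1 RPKM in A. It was lower in B (-0.31 ± 0.07, limma adjusted p = 0.0463; 0.0671 with the block), and the difference was -0.12 after removal of the GC and length trend (0.489). It also missed the threshold without limma's trend (adjusted p = 0.0748) and in the 6 libraries of B and A alone (0.0571). Without A1 and B1, Pet100 kept its call (0.57, limma adjusted p = 0.0132) and Dld lost it (-0.25, 0.0847). At an unadjusted p under 0.05, 5 of the 18 glycolysis genes were higher and 2 lower in D against C, beside 11.1% and 7.02% of all genes. In D against A 6 were higher and 0 lower, beside 10.8% and 8.18%.

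Levels of the neighbouring pathways set the scale. The uncoupling protein Ucp2 averaged 245 ± 22 RPKM in A, 270.5 ± 13.6 in B, 260 ± 13.9 in population C and 286 ± 12.4 in D (SD, n = 3 each), above Atp5b, the most abundant member, in the mean of each population. Cycs, cytochrome c itself, averaged 15.2 RPKM over the 12 libraries, and Atpif1, the inhibitor of the ATP synthase, 6.80 RPKM. In the other lists the most abundant genes were Gapdh of glycolysis at 185 RPKM, Mdh2 of the tricarboxylic acid cycle at 107 RPKM, 2010107E04Rik, a subunit outside the symbol rule, at 92.7 RPKM, Cox20 of complex IV assembly at 68.8 RPKM and Yy1 among the regulators at 56.7 RPKM. Coq2 of coenzyme Q synthesis stood at 26.3 RPKM, and Sdhaf1, Uqcc3, Ecsit and Atpaf2, assembly factors of complexes II, III, I and V, at 24.1, 23.5, 18.1 and 17.2 RPKM.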

How the data were processed

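The authors deposited 1 table of RPKM values for 12 libraries. Per the labels' protocols, sorted cells were lysed, RNA was isolated (Quick-RNA MicroPrep kit), and SMART-seq v4 cDNA became NexteraXT libraries. The submitters' processing notes name STAR and builds mm9 and mm10. No source used here gives the counting tool, the annotation or the use of strand. Whole reads recovered from the steps of the values (100% whole, tolerance 0.1 read) gave each library's depth.

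Populations came from the labels. In R 4.3.3, limma 3.58.1 was run on log2(RPKM + 0.5) of the 12 libraries together, without a block and with limma's trend of variance on level. Differences are on this scale, which understates those of low genes. Nothing in the labels beyond the mouse number says how replicates differ. The fit was tested on simulated data with independent noise, in which 200 of 10021 genes were changed in D against A. It recovered 77% of those changed by a log2 difference of 0.5 and 95% of those changed by 1, with 6 false calls. Changes as small as those estimated for the members, and deviations shared by genes of a library, were not simulated. Python 3.11.15 with pandas 2.3.3 and numpy 2.4.6 did the rest. The longest GENCODE M21 transcript of each gene, matched by Entrez identifier, gave GC content for 9745 of the 10021 genes tested. The members, lists and the rule for named genes (highest and lowest of each complex, smallest p, isoform families, extreme SD, catalytic subunits) were chosen with earlier results of these data known.

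Same-numbered libraries come from 1 animal by label. Their deviations from population means correlated at -0.07 on average (18 pairs, -0.61 to 0.38). Pairs of different number and different population averaged 0.03 (36 pairs). Among libraries of other populations, 2 of 12 libraries correlated best with one of their own number. The values thus did not show the pairing that the labels give, and the mouse block was an alternative. Others were pseudocounts of 0.1 and 1, filters, rescalings, voom, and leaving libraries out. Values of 1 member are not reported here by name, and it is left out of the plots that label genes.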

Additional observations from a re-analysis of the deposited data

How the results depend on the processing

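No member passed in any comparison with pseudocounts of 0.1 or 1, without a filter, with a filter of 5 RPKM, with median or quantile rescaling, without a trend, with limma-voom on recovered reads, in fits of the 6 libraries compared, or with GC and length trends removed. The replicate block, which uses the pairing by mouse, also left 0 members past the threshold in every comparison, while it moved the count of all genes in B against A to 2, against 223 without it. Leaving out A1 and B1 gave 2 members in D against C, 3 in C against B, 3 in D against A and 3 in the F test. Leaving out C3 too, chosen after seeing the data, gave 1 in D against C, 1 in B against A, 1 in C against B, 8 in D against A and 1 in the F test. With 1 library left out in turn, C against B ranged from 0 to 2 members. The 2 came without B1, where 386 of the 10021 genes tested passed. In the other tests each such fit gave 0 members. The median over members then ranged from -0.02 to 0.02 in D against C, -0.01 to 0.02 in B against A, 0.04 to 0.07 in C against B and 0.04 to 0.10 in D against A. The median in C against B was -0.00235 with the GC and length trend removed. Atp5f1 in B against A turned to 0.14 with that trend removed, and to 0.14 with the replicate block added. Pet100 missed the threshold in 5 of 12 fits without 1 library (adjusted p up to 0.139) and Dld in 9 (up to 0.154). The cause of these moves was not tested. At 27 to 52 reads a library, Atp5s is limited by counting.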
